A study of Mus musculus with 6 samples.

Results

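The 10 genes described here encode nuclear receptors and coactivators that set the capacity of heart muscle to burn fuel: 3 peroxisome proliferator-activated receptors (Ppara, Ppard, Pparg), 3 estrogen-related receptors (Esrra, Esrrb, Esrrg), 2 retinoid X receptors (Rxra, Rxrg) and 2 coactivators of the PGC-1 family (Ppargc1a, Ppargc1b). They were taken by gene symbol from a table of 54532 genes measured in whole hearts of mice aged 15 days, and each symbol matched 1 gene. The control hearts came from 3 Nat10flox/flox mice, whose Nat10 gene carries recombination sites, and were compared with 3 hearts of mice labelled Nat10-CKO, a deletion of Nat10 meant for cardiomyocytes. Nat10 encodes the enzyme that acetylates cytidines in RNA. The labels name neither the Cre line nor the exons between the recombination sites. Levels are FPKM, fragments counted per gene and corrected for gene length and sequencing depth, so the levels of different genes can be set side by side.

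As background, PPAR proteins bind fatty acids or their derivatives, pair with an RXR protein and switch on genes of fat uptake and oxidation; PPAR alpha is the form best known for this in heart muscle. ERR proteins have no known hormone and drive genes of the citric acid cycle and of respiration. PGC-1 proteins bind no DNA themselves and lend transcriptional strength to both receptor groups. The program is known to build up after birth, when the heart turns from sugar to fat as its main fuel.

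In the hearts labelled CKO 2 of the 10 members were called lower, Rxrg at 0.250 and Ppargc1a at 0.465 of the flox mean, and none was called higher. A gene was called where limma, a linear model fitted to each gene with the spread moderated across all genes, gave an adjusted p under 0.05. Of all 12469 genes tested, 14.1% were called in either direction and 7.19% were called lower. Ppargc1b and Ppara had means of 0.485 and 0.455 of the flox level without passing the test. The 3 ERR genes, Ppard, Pparg and Rxra did not pass and lay between 0.805 and 1.11 of the flox mean. Downstream, 17 of 27 tested PPAR target genes and 15 of 25 energy genes ascribed to ERR and PGC-1 were called lower, and none was called higher. Both lists, like the members, were chosen with earlier results of these data known, so these counts are descriptions.

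Recovered read counts were 15048038 to 16280061 per heart, and all 10 members passed the filter of a mean of at least 1 FPKM that 12469 genes passed. The smallest count behind a member was 95 reads, for Ppara in CKO replicate 1. Nat10 did not separate the groups, at 3.87, 3.78 and 4.57 FPKM in flox hearts and 3.69, 3.75 and 4.18 FPKM in CKO hearts (log2 change −0.06 ± 0.12, SE, limma adjusted p = 0.768; 0.06 with TPM scaling). A total over all exons and all cells of the heart does not check a deletion of some exons in 1 cell type, so directions are stated for hearts labelled CKO. CKO replicate 1 stood apart: it was the lowest of the 6 hearts for 8 of the 10 members, all but Esrra and Pparg, against 29.7% of all tested genes. The mitochondrial share of its reads was also the lowest, at 11.6%, where the other CKO hearts had 14.2 and 13.7% and the flox hearts 14.5 to 17.0%, without overlap; the part of this share in the members' changes was not tested. Values without it are given below where they matter.

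The promoter windows of the members that were called, and of Esrra as the most abundant member that was not, are printed first, since they show what sequence surrounds the starts of these genes. Each runs from 250 bases before a RefSeq start site to 50 bases from it, read 5′ to 3′ on the strand of the gene (RefSeq, GRCm38.p6). Ppargc1a has 1 listed window, chr5:51567676-51567975 on the minus strand. Rxrg has 2, chr1:167598112-167598411 and chr1:167618015-167618314 on the plus strand. Esrra has 1, chr19:6921759-6922058 on the minus strand. Capitals mark the core of a nuclear receptor site, AGGTCA, or the core of a cyclic AMP response site, TGACG, each on either strand.

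Ppargc1a: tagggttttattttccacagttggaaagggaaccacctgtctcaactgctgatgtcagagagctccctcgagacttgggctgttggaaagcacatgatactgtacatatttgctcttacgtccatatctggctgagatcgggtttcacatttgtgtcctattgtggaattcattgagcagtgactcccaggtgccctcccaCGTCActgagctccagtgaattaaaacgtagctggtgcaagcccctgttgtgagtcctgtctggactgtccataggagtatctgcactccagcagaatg
Rxrg, upstream start: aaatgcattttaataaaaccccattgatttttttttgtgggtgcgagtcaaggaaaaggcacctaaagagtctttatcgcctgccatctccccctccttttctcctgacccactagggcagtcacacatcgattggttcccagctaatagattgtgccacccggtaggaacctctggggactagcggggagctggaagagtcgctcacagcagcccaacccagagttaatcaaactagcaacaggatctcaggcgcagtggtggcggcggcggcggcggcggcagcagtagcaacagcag
Rxrg, downstream start: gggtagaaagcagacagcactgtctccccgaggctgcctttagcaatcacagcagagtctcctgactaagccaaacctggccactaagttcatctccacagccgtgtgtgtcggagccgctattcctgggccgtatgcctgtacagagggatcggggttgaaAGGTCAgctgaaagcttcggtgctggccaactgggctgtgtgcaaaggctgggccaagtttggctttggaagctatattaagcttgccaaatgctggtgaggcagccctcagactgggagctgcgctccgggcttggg
Esrra: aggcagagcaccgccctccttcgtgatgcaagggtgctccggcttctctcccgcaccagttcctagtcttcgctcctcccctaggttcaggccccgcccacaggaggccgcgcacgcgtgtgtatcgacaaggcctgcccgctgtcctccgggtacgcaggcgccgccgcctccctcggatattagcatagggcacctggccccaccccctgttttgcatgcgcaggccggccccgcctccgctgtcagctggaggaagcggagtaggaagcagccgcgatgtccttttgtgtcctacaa

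The Ppargc1a window holds 1 TGACG core, on the strand opposite to the gene (it reads CGTCA in the printed line), at bases −49 to −45 from the start. Across all 32851 windows of the same length, 20.8% hold such a core. The full cyclic AMP element TGACGTCA, found in 1.79% of all windows, was in none of the members' windows searched. No window of Ppargc1b was searched. AGGTCA occurs once in the downstream Rxrg window, at −88 to −83, and in neither the upstream Rxrg window nor those of Ppargc1a and Esrra, against 16.25% of all windows. The extended ERR form TCAAGGTCA (0.423% of all windows, and holding AGGTCA within it) and 2 copies of AGGTCA in the same direction spaced by 1 base, the classical PPAR and RXR element (0.04%), were in none of the 17 windows of 9 members. These are matches of letters in a short window and say nothing about binding. GC content of the printed windows was 48.7% for Ppargc1a, 53.7% and 57.0% for Rxrg and 66.0% for Esrra, where the median of all windows was 52.7%.

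Ppargc1a, the coactivator induced by cold, fasting and exercise in other tissues (ENSMUSG00000029167, chromosome 5, 51454250 to 51567726, GRCm38), was at 19.8, 20.6 and 16.4 FPKM in flox replicates 1, 2 and 3. It was at 5.22, 11.2 and 10.01 FPKM in CKO replicates 1, 2 and 3. Every CKO heart lay below every flox heart, and CKO replicate 1 was lowest. The group means were 18.9 ± 2.23 and 8.79 ± 3.15 FPKM (SD, n = 3). The change was −1.08 ± 0.25 on the scale of log2(FPKM + 1), which understates the change of low genes (SE; 95% interval −1.67 to −0.49; limma adjusted p = 0.0324). An exact two-sided permutation test gave p = 0.1, the smallest that 3 hearts against 3 allow, as it did for each comparison below whose groups do not overlap. The call was lost without flox replicate 1 (adjusted p = 0.113), without flox replicate 2 (0.108) and without CKO replicate 3 (0.0618), as well as with no filter on low values (0.0950) and with the replicate number as a block (0.0715), and held without CKO replicate 1 at a change of −0.78 (adjusted p = 0.0216).

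Ppargc1b, the second PGC-1 gene (ENSMUSG00000033871, chromosome 18, 61298136 to 61400431), followed the same order of hearts within the CKO group. It was at 15.6, 16.02 and 10.97 FPKM in flox replicates 1, 2 and 3 and at 3.70, 9.01 and 7.96 FPKM in the CKO replicates. The groups did not overlap, but the change of −1.002 ± 0.29 (SE; 95% interval −1.69 to −0.32) did not pass (limma adjusted p = 0.0614). It passed under 4 of 17 alternative settings, among them the omission of CKO replicate 2 (adjusted p = 0.0447) and a count-based fit (0.0450). Without CKO replicate 1 the change was −0.66 (limma adjusted p = 0.0651). The highest adjusted p was 0.182, without flox replicate 1. The gene lies around a microRNA precursor gene, Mir378a, which had no reads in any heart, and Gm25301, a microRNA gene on the opposite strand at a mean of 5.16 FPKM. The make-up of the pair differed by less than the spread between hearts: Ppargc1a held 57.3 ± 2.23% of their summed FPKM in flox and 56.5 ± 1.74% in CKO hearts (exact permutation p = 0.5). The sum itself went from 33.1 ± 5.03 to 15.7 ± 5.96 FPKM.

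Pprc1, the remaining PGC-1 relative, was not among the members and is named after its values were seen. It was at 3.40, 4.06 and 4.06 FPKM in flox and 5.47, 5.43 and 8.47 FPKM in CKO hearts, so its groups did not overlap in the opposite direction. Its change of 0.60 ± 0.17 did not pass (limma adjusted p = 0.0590).

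**Figure D1:**
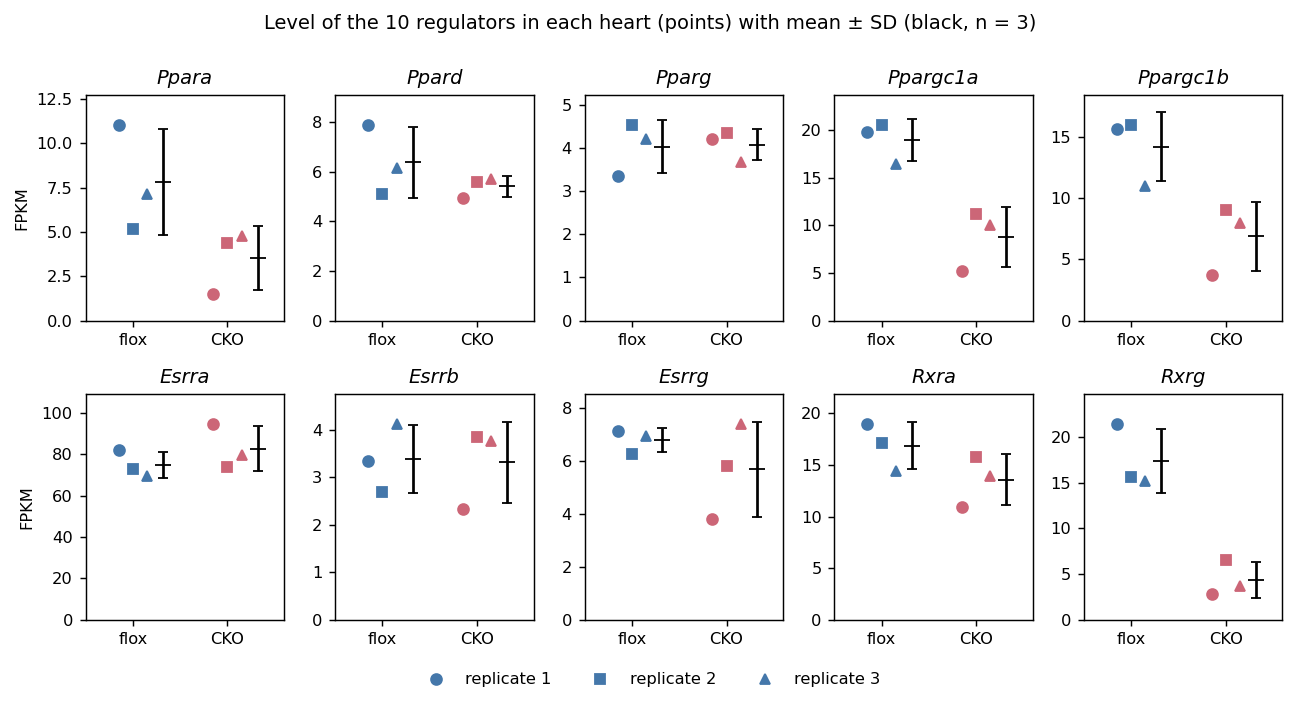
Level in FPKM of each of the 10 regulators in the 3 flox (blue) and 3 CKO (red) hearts, with symbols for the replicate number and the mean ± SD in black; each axis starts at 0 and has its own scale. CKO replicate 1 (circle) is the lowest heart for 8 genes, and the groups are fully apart for Ppara, Ppargc1a, Ppargc1b and Rxrg.

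Rxrg, an RXR form found in muscle and brain (ENSMUSG00000015843, chromosome 1, 167598384 to 167639623), had the largest change among the members. Its levels were 21.5, 15.6 and 15.2 FPKM in flox replicates 1, 2 and 3. In the CKO replicates they were 2.84, 6.54 and 3.71 FPKM, or 109, 247 and 135 reads. The highest CKO heart had less than the lowest flox heart by a wide margin. The change was −1.82 ± 0.26 (SE; 95% interval −2.43 to −1.22; limma adjusted p = 0.00797), and it was called under all 17 alternative settings, with adjusted p from 0.0035 to 0.0408.

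Rxra, the RXR form present in most tissues (ENSMUSG00000015846, chromosome 2, 27676440 to 27762957), was at 19.0, 17.1 and 14.4 FPKM in flox and at 10.9, 15.8 and 13.9 FPKM in CKO hearts. The groups overlapped, and the change of −0.30 ± 0.17 was not called (95% interval −0.69 to 0.09; limma adjusted p = 0.258). Of the summed FPKM of both RXR members, Rxrg thus held 53.1, 47.7 and 51.3% in flox and 20.6, 29.3 and 21.0% in CKO hearts. The share went from 50.7 ± 2.75% to 23.6 ± 4.90% (exact permutation p = 0.1), and omitting any 1 heart left a difference of −25.5 to −29.9 percentage points. With Rxrb, the third RXR gene, in the sum, a setting added after the data were seen, the Rxrg share went from 33.9 ± 3.03% to 13.1 ± 3.90%. Rxrb itself was not called (log2 change −0.20 ± 0.14, limma adjusted p = 0.348).

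Ppara, the receptor of the fat-burning program (ENSMUSG00000022383, chromosome 15, 85734983 to 85802819), varied most among the flox hearts relative to its mean, at 11.05, 5.19 and 7.15 FPKM. In CKO hearts it was at 1.48, 4.38 and 4.78 FPKM. The groups did not overlap, but flox replicate 2 lay only just above CKO replicate 3. The change of −0.99 ± 0.36 was not called (95% interval −1.84 to −0.14; limma adjusted p = 0.109), nor was it under any of the 17 alternatives, with adjusted p from 0.0868 to 0.306. Without CKO replicate 1 the change was −0.60.

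Ppard, a widely expressed receptor (ENSMUSG00000002250, chromosome 17, 28232700 to 28301474), was at 7.90, 5.10 and 6.14 FPKM in flox and 4.93, 5.60 and 5.70 FPKM in CKO hearts. These ranges overlapped, and the change was −0.19 ± 0.16 (95% interval −0.55 to 0.18; limma adjusted p = 0.443). Pparg, the receptor of fat cell formation (ENSMUSG00000000440, chromosome 6, 115360951 to 115490399), was at 3.34, 4.54 and 4.197 FPKM in flox and 4.19, 4.35 and 3.68 FPKM in CKO hearts. Its CKO values lay inside the flox range, with a change of 0.02 ± 0.13 (95% interval −0.29 to 0.33; limma adjusted p = 0.936). Of the summed PPAR FPKM, Ppara held 49.6, 35.003 and 40.9% in flox and 14.0, 30.6 and 33.7% in CKO hearts. The Ppara share was 41.8 ± 7.32% and 26.1 ± 10.6% (exact permutation p = 0.1), and the Ppard share 34.99 ± 0.550% and 41.95 ± 3.96% (exact permutation p = 0.1). For both shares the groups did not overlap, while the Pparg shares did. Without CKO replicate 1 the difference in the Ppara share was −9.67 rather than −15.7 percentage points.

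**Figure D2:**
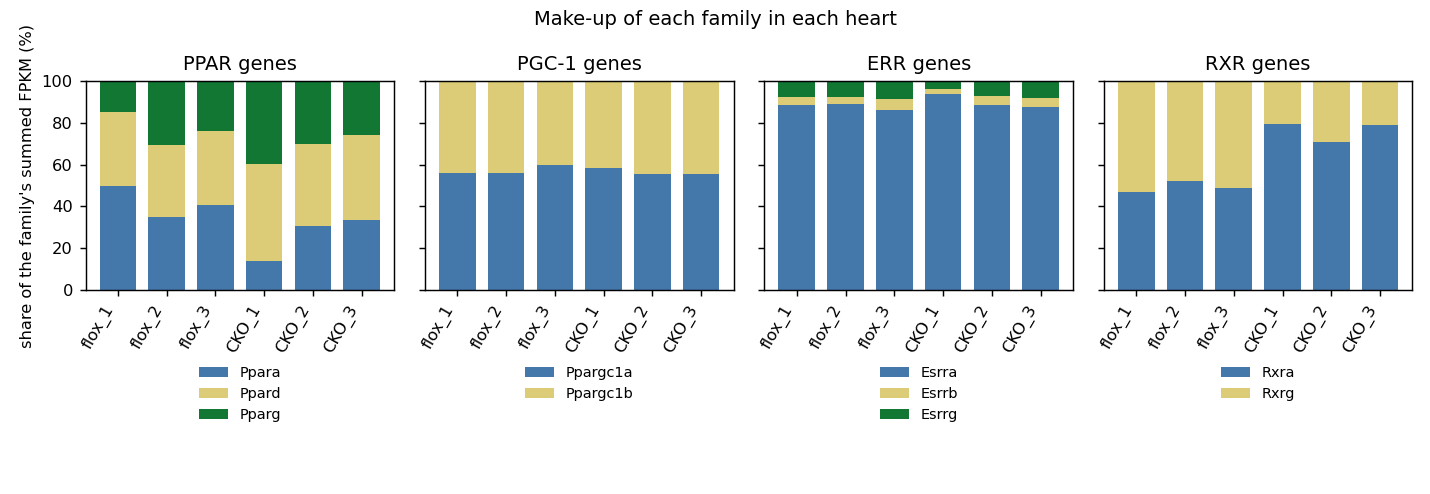
Share of each member in the summed FPKM of its family, in percent, for each of the 6 hearts; colours name the genes under each panel. The Rxrg share is 47.7% or more in flox and 29.3% or less in CKO hearts, while the PGC-1 panel stays near 57%, with 55.3 to 59.9% for Ppargc1a.

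Esrra, the most abundant member (ENSMUSG00000024955, chromosome 19, 6910977 to 6921813), was at 82.1, 73.1 and 69.6 FPKM in flox and 94.9, 74.0 and 79.5 FPKM in CKO hearts. The ranges overlapped, and CKO replicate 1, lowest for most members, was here the highest of the 6. The change of 0.14 ± 0.15 was not called (95% interval −0.20 to 0.48; limma adjusted p = 0.551). Esrra overlaps Trmt112, a gene on the opposite strand at a mean of 11.97 FPKM, and the labels do not say whether strand was used in counting.

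Esrrg, the ERR form rich in heart and other oxidative tissue (ENSMUSG00000026610, chromosome 1, 187608791 to 188214885), was at 7.13, 6.26 and 6.93 FPKM in flox and 3.82, 5.82 and 7.41 FPKM in CKO hearts. CKO replicate 1 was well below the others and CKO replicate 3 above every flox heart. The change was −0.25 ± 0.20 (95% interval −0.72 to 0.21; limma adjusted p = 0.419), and −0.04 without CKO replicate 1. Esrrb, best known from embryonic stem cells (ENSMUSG00000021255, chromosome 12, 86361117 to 86521628), was the lowest member, at 3.34, 2.69 and 4.13 FPKM in flox and 2.33, 3.84 and 3.76 FPKM in CKO hearts. These ranges overlapped (change −0.03 ± 0.19, 95% interval −0.48 to 0.41, limma adjusted p = 0.923). Esrra held 88.0 ± 1.51% of the summed ERR FPKM in flox and 90.0 ± 3.39% in CKO hearts (exact permutation p = 0.6).

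**Figure D3:**
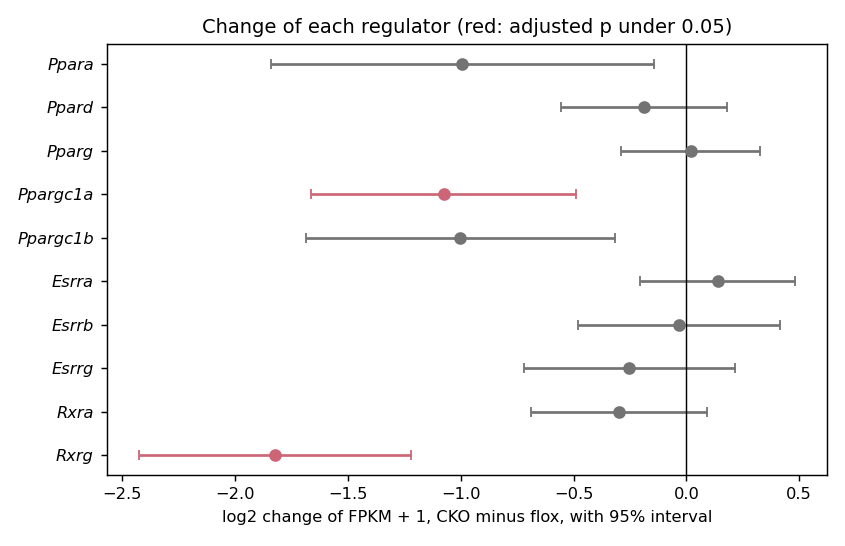
Change of each regulator on the scale of log2(FPKM + 1), CKO minus flox, with the 95% interval of the limma fit (n = 3 per group); red marks an adjusted p under 0.05. Rxrg at −1.82 and Ppargc1a at −1.08 are red, and the intervals of Ppargc1b and Ppara end below 0 without a call.

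Counted together, 20% of the members were called, both lower, against 7.19% of all genes tested. The groups were apart, with every CKO heart lower, for 4 members (40%), against 19.9% of all genes tested. The 10 genes were chosen as a family with earlier results of these data known. These shares are therefore a description, and no test was made of them. The median change of the members was −0.28 and that of all genes tested was −0.0013. Scaling by TPM or by total counts moved the median of all genes to 0.13 and 0.11 and the share of calls that were higher from 49.1% to 69.0% and 66.4%. Both members called kept their direction and call under both scalings.

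The order of levels also differed between the groups. In flox hearts Esrra led at a mean of 74.9 FPKM, apart from all others, followed by Ppargc1a (18.9), Rxrg (17.4), Rxra (16.9) and Ppargc1b (14.2), whose neighbouring ranges overlapped. Ppara (7.80), Esrrg (6.77) and Ppard (6.38) came next, again with overlapping neighbours, and Pparg (4.02) and Esrrb (3.39), below the range of Ppard, were lowest. In CKO hearts Esrra at 82.8 FPKM was again apart from the rest. Rxra was second at 13.6 FPKM, Rxrg went to seventh place at 4.36 FPKM and Ppara to ninth at 3.55 FPKM. Every pair of neighbours below Esrra overlapped there.

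Genes driven by PPAR proteins were lower in the CKO hearts as a list. Of 30 genes listed, 27 were tested, 17 were called lower, 0 higher and 10 were not called, and the median change was −1.02. Over all genes tested, 7.19% were called lower and the median change was −0.0013. The list was not tested against these values. The 3 not tested, Vnn1, Cyp4a14 and Fgf21, were under 1 FPKM on average. Ucp3, a mitochondrial carrier, was at 40.4, 37.5 and 27.7 FPKM in flox and 2.35, 18.3 and 6.57 FPKM in CKO hearts (change −2.18 ± 0.56, limma adjusted p = 0.0408), and CKO replicate 1 was lowest, as it was for Ppara. Slc27a1, a fatty acid transporter, changed by −1.76 ± 0.30 (limma adjusted p = 0.0137) and Acot1, a thioesterase with close paralogs whose reads may be shared, by −1.68 ± 0.39 (0.0308). The calls of Ucp3, Slc27a1 and Acot1 were lost without flox replicate 1 and without flox replicate 2, and those of Ucp3 and Acot1 also without CKO replicate 1 or CKO replicate 3, and that of Ucp3 without flox replicate 3. The number called lower was 3 without flox replicate 1, 4 without flox replicate 2, 8 without CKO replicate 3 and 12 without CKO replicate 1. The list's median stayed between −1.22 and −0.84 in every setting.

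Energy genes ascribed to ERR and PGC-1, mostly enzymes of the citric acid cycle and subunits of respiration, were also lower as a list. All 25 were tested, 15 were called lower, 0 higher and 10 were not called, at a median change of −0.56. The share called lower over all genes tested was 7.19%, and the list was not tested against it. The cardiomyocyte markers given below had a median of −0.53, close to that of this list, and their part in the changes of both target lists was not tested. Cox7a1, the muscle form of a cytochrome oxidase subunit, was at 319, 241 and 274 FPKM in flox and 158, 132 and 106 FPKM in CKO hearts, with no overlap (−1.08 ± 0.19, limma adjusted p = 0.0144). Etfa, which carries electrons from fat oxidation, changed by −1.03 ± 0.13 (limma adjusted p = 0.00612), and its call held without each heart in turn. Mb, the oxygen store myoglobin, changed by −0.95 ± 0.16 (limma adjusted p = 0.0134). Without flox replicate 1 the calls of Cox7a1 and Mb were lost, and without flox replicate 2 that of Mb. The number called lower was 1 without flox replicate 1, 2 without flox replicate 2, 4 without CKO replicate 3 and 16 without CKO replicate 1, at medians from −0.65 to −0.42 over all settings.

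Of 12 tested factors of mitochondrial biogenesis, which include the nuclear activators Nrf1 and Gabpa beside those that copy and transcribe the mitochondrial genome, 2 were called lower, 0 higher and 10 were not called, at a median of −0.08. Of all genes tested, 7.19% were called lower at the same adjusted threshold. At a looser threshold, an unadjusted limma p under 0.05, 4 of the 12 were lower. The share of all genes at the looser threshold is not given here. Polrmt, the mitochondrial RNA polymerase, was at 10.3, 11.97 and 10.6 FPKM in flox and 6.13, 8.04 and 6.53 FPKM in CKO hearts (−0.60 ± 0.13, limma adjusted p = 0.0272). Mterf2, a mitochondrial termination factor family gene that overlaps Tmem263, changed by −0.53 ± 0.12 (limma adjusted p = 0.0291). Both calls were lost without any 1 of the 3 flox hearts and without CKO replicate 3.

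Among 23 coactivators, corepressors and modifying enzymes, 2 were called higher, 2 lower and 19 were not called (median −0.26), a share near the 14.1% of all genes tested. Lpin1, which boosts PGC-1 alpha and PPAR alpha in mouse liver, was at 16.9, 11.996 and 14.4 FPKM in flox and 3.92, 6.995 and 6.78 FPKM in CKO hearts (−1.18 ± 0.22, limma adjusted p = 0.0158). Perm1, a muscle regulator induced by PGC-1 and ERR proteins, changed by −0.87 ± 0.20 (limma adjusted p = 0.0304). Prkab2, a regulatory subunit of AMP-activated kinase, was at 8.33, 9.69 and 8.92 FPKM in flox and 22.4, 15.2 and 20.9 FPKM in CKO hearts (1.02 ± 0.16, limma adjusted p = 0.0110). Mybbp1a, a nucleolar protein that represses PGC-1 alpha and overlaps Spns2, changed by 0.61 ± 0.13 (limma adjusted p = 0.0236). The calls of Lpin1 and Prkab2 were lost without flox replicate 1, those of Perm1 and Mybbp1a without flox replicate 1, flox replicate 2 or CKO replicate 3, and that of Perm1 also without flox replicate 3. Without CKO replicate 1 the list's median was −0.06.

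Of 9 transcription factors known to act on the Ppargc1a gene, limma called 0 at the adjusted threshold and voom on recovered counts called 1, Mef2d. At an unadjusted p under 0.05 there were 3, all lower: Mef2d, Mef2a and Klf15, named after their values were seen. The share of all genes at that unadjusted threshold is not given here. The most abundant was Mef2d, a muscle factor, at 60.3, 51.0 and 44.7 FPKM in flox and 22.5, 36.1 and 34.3 FPKM in CKO hearts (−0.75 ± 0.21, limma adjusted p = 0.0528). Its groups did not overlap.

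The rest of the nuclear receptor family gives the setting for the receptors above. Of 40 other family genes 23 were tested, 3 were called lower, 0 higher and 20 were not called (median −0.29), and 6 were at 0 in every heart. Over all genes tested, 14.1% were called in either direction and 7.19% lower, and the count for this list was not tested against these shares. Nr3c2, the mineralocorticoid receptor, was at 3.84, 3.26 and 2.01 FPKM in flox and 0.259, 0.545 and 0.478 FPKM in CKO hearts (−1.48 ± 0.20, limma adjusted p = 0.00792). Nr0b2, which lacks a DNA-binding domain and represses other receptors, was at 7.96, 9.58 and 7.72 FPKM in flox and 4.12, 4.09 and 2.79 FPKM in CKO hearts (−1.02 ± 0.16, limma adjusted p = 0.01003). These calls held without each heart in turn. Thrb, a thyroid hormone receptor, changed by −0.95 ± 0.23 (limma adjusted p = 0.0346), and this call held when flox replicate 3 was left out but not when any other heart was. With Rxrg, the nuclear receptor genes called lower among those examined were thus Rxrg, Nr3c2, Nr0b2 and Thrb.

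**Figure D4:**
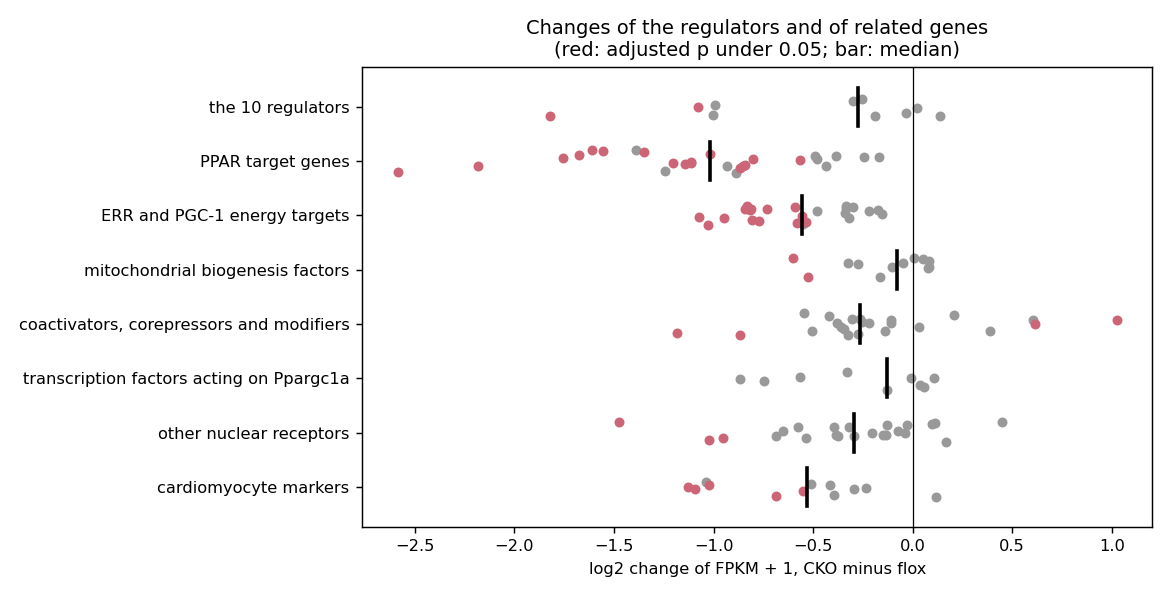
Changes on the scale of log2(FPKM + 1), CKO minus flox, of the 10 regulators and of each related gene list; every point is 1 tested gene, red marks an adjusted p under 0.05 and the bar is the median. All tested PPAR target genes (median −1.02) and energy targets (−0.56) lie to the left of 0. The regulators lie mostly to the left as well, 8 of 10 (median −0.28). So do 17 of 23 coactivators, corepressors and modifiers (−0.26) and 19 of 23 other nuclear receptors (−0.29). Of all genes tested, 50.1% were lower.

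Whole hearts hold several cell types, and in such samples fewer cells of a type and less RNA per cell cannot be told apart. Beside the marker counts below, 14.1% of all 12469 genes tested were called, 864 higher and 897 lower. Cardiomyocyte markers were plentiful, with a summed level of 19818 to 24509 FPKM in flox and 15095 to 16615 FPKM in CKO hearts, and 5 of 12 were called lower, 0 higher (median −0.53; Tnnt2 −1.13 ± 0.21, Pln −1.09 ± 0.23, Myh6 −1.02 ± 0.25, Myl2 −0.68 ± 0.16). Fibroblast markers summed to 869 to 1137 FPKM in flox and 1272 to 1681 FPKM in CKO hearts. Of these 12 markers, 5 were called higher and 0 lower (Postn 1.71 ± 0.22, Mfap5 1.39 ± 0.34, Col1a2 1.01 ± 0.17, Tcf21 1.01 ± 0.20). The changes of 4 of the 12 were negative, without a call (median of the list 0.47, lowest change −0.16). Macrophage markers summed to 118 to 139 FPKM and 147 to 263 FPKM, with Cd68 alone called of 12, higher (0.65 ± 0.16). Endothelial markers summed to 577 to 651 FPKM and 513 to 598 FPKM, with Vwf alone called of 12, higher (0.64 ± 0.13). Most of the endothelial list went the other way without a call: 8 of 12 changes were negative (median −0.18), 3 of them with no overlap between groups. Of all genes tested, 50.1% were lower and 19.9% were lower with no overlap. The endothelial counts were not tested against these shares. Leaving out flox replicate 1 ended every call among these named markers except that of Postn. The part of these shifts in the changes of the members and of the lists was not tested. Of markers of fat cells, where Pparg is abundant, 7 of 8 were below 0.1 FPKM in every heart, and Cidea, which heart muscle also expresses, was at 16.8 to 27.5 FPKM (−0.51 ± 0.12, limma adjusted p = 0.0347).

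Set against the geometric mean of the 12 cardiomyocyte markers in the same heart, which was lower in CKO hearts by 0.61 on the log2 scale of FPKM (exact permutation p = 0.1), Rxrg and Ppargc1a remained lower. Rxrg was at −1.46 and Ppargc1a at −0.56, CKO minus flox, and both had groups that did not overlap (exact permutation p = 0.1 each). Ppara at −0.63 (exact permutation p = 0.4) and Ppargc1b at −0.51 (exact permutation p = 0.2) overlapped. Since the markers were themselves lower by 0.61, a gene with the same level in both groups reads above 0 by that amount on this scale, and a positive ratio is not a rise of the gene. Esrra read 0.75 (0.14 without the markers), Pparg 0.63 (0.03), Ppard 0.39 (−0.22) and Rxra 0.29 (−0.32). For each of these the groups did not overlap either, with the CKO hearts higher (exact permutation p = 0.1 each). Esrrb read 0.56 (−0.05) and Esrrg 0.31 (−0.30), with groups that overlapped. Without CKO replicate 1 the Ppargc1a difference was −0.27, while those of Rxrg and Esrra were −1.24 and 0.60. These 10 comparisons use the same markers, which are themselves among the genes that were lower, and no p below 0.1 was possible.

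**Figure D5:**
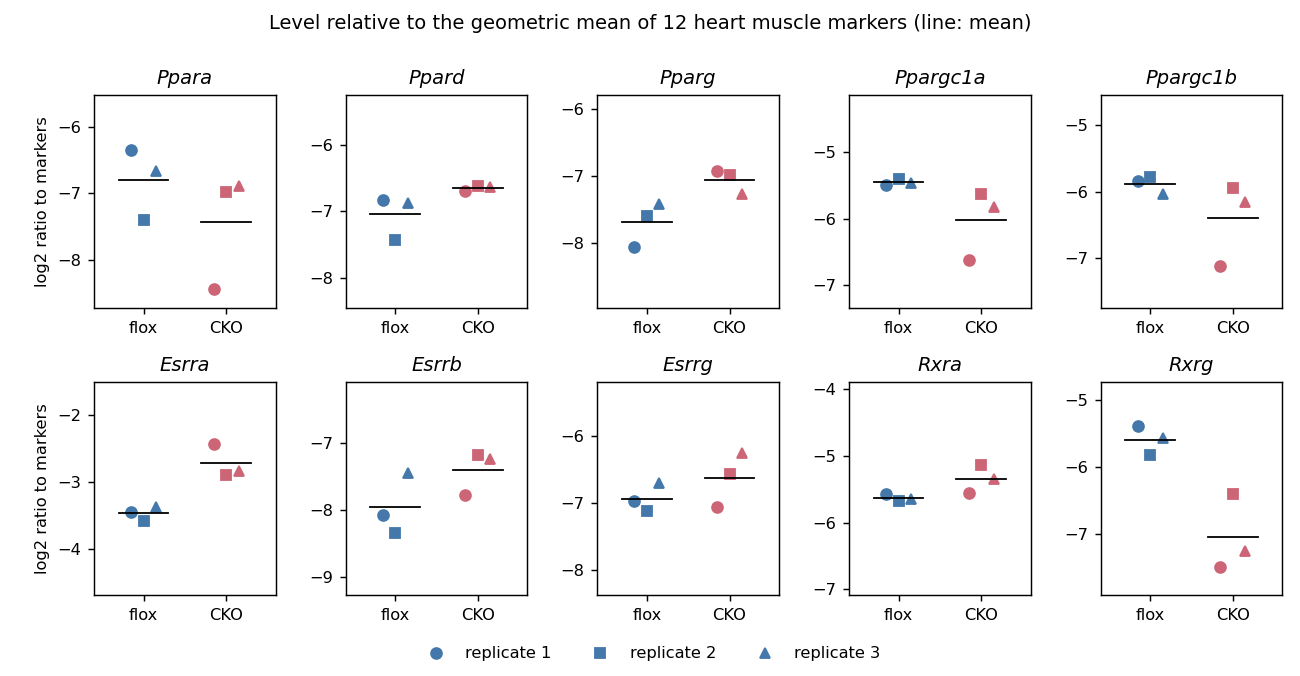
Log2 ratio of each regulator to the geometric mean FPKM of 12 cardiomyocyte markers in the same heart, by group, with symbols for the replicate number and a line at the mean; all panels span the same height. Rxrg and Ppargc1a lie lower in all 3 CKO hearts; the markers were themselves lower by 0.61, so a gene at the same level in both groups lies higher in CKO hearts here.

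The genes most like 3 of the members over the 6 hearts were found by Pearson r of log2(FPKM + 1) among 6494 protein-coding genes with a mean of at least 5 FPKM. The hearts fall into 2 groups and each value comes from the same 6 libraries, so these values are descriptions. For Ppargc1a they were Zfp629 (r = 0.997), Stard8 (0.997), Appl2 (0.996) and Akap1 (0.996), the last an anchor for protein kinase A on mitochondria. All 4 were called lower, with changes of −0.80, −0.86, −0.78 and −0.65. Like Ppargc1a, all 4 lost the call without flox replicate 1, flox replicate 2 or CKO replicate 3, and unlike it with TPM scaling. They were picked for following Ppargc1a over all 6 hearts, its group difference included, so the shared calls and losses are not separate results. For Ppara they were Rubcn (r = 0.998), Rgl1 (0.993), Eya3 (0.991) and Rnf139 (0.988), with limma adjusted p from 0.141 to 0.485. For Esrrg they were Zfp397 (r = 0.991), Pbrm1 (0.990), Tlk1 (0.986) and Slc8a1 (0.986), the last the sodium and calcium exchanger of heart muscle. Slc8a1 was at 58.8, 50.4 and 58.0 FPKM in flox and 21.6, 50.6 and 65.9 FPKM in CKO hearts, the order of hearts seen for Esrrg within the CKO group.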

How the data were processed

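Messenger RNA of 3 flox and 3 CKO hearts was sequenced. The authors deposited FPKM values per gene with a gene length. Per the labels' series text and the submitters' processing notes, reads were aligned to GRCm38 (mm10) with HISAT2 2.0.5 and counted with featureCounts 1.5.0-p3, and DESeq2 1.20.0 is listed. FPKM multiplied by gene length gave whole reads for 100% of values (tolerance 0.01), and the implied library sizes equal median-ratio scaling, so the deposited values are already scaled between hearts. The series text calls the 3 hearts of a group independent biological replicates.

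Genes with a mean of at least 1 FPKM were fitted on log2(FPKM + 1) with limma 3.58.1 (R 4.3.3) with a mean-variance trend, two-sided, with Benjamini-Hochberg adjustment over all 12469 genes and a threshold of 0.05. The fit was also run on simulated counts with the same spread setting for every gene. That checks the code and not the calls made in these hearts. Single values were compared by exact permutation. The members and the 11 gene lists (197 symbols) were chosen with earlier results of these data known. Named genes were all members, Nat10, up to 4 called genes with the largest change per list or else the most abundant one, and the 4 genes most like Ppara, Ppargc1a and Esrrg (some named genes are not reported here); Pprc1, Rxrb and the untested PPAR targets were named after their values were seen. Alternatives were other pseudocounts, filters, scalings and moderation, array weights, voom on recovered counts, the replicate number as a block, and each heart left out.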

Additional observations from a re-analysis of the deposited data

How the results depend on the processing

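The numbers of genes called, called higher and called lower, of members called, and of PPAR and of energy targets called lower were, with the settings used, 1761, 864, 897, 2, 17 and 15. Without a filter on low values they were 641, 316, 325, 1, 6 and 3. With the replicate number as a block (replicate block) they were 541, 278, 263, 1, 8 and 2, and Ppargc1a had an adjusted p of 0.0715; same-numbered hearts did not deviate together (correlations −0.283, −0.137 and −0.192), so the numbers were not taken as pairs. Array weights gave 2784, 1327 and 1457 genes and 3 members (the same 2 and Ppargc1b), as did voom and a minimum of 5 FPKM for members (3 each); TPM gave 1443 genes called higher. Leaving out 1 heart gave 364 to 1794 genes, 193 to 960 higher, 171 to 844 lower, 1 to 3 members, 3 to 19 PPAR targets and 1 to 16 energy targets. The cause of these shifts was not tested, and fewer hearts or more genes tested also enter them. Changes near 0 reversed. Esrrb was 0.0867 with TPM, 0.0725 with total counts, 0.141 with array weights and −0.151 to 0.143 with 1 heart left out. Nat10 was 0.0645, 0.0538, 0.0008 and −0.101 to 0.0129 likewise. With 1 heart left out Pparg was −0.0829 to 0.0929, Zfp397 −0.276 to 0.0092 and Slc8a1 −0.729 to 0.053. Rnf139 and Pbrm1 were 0.0027 and 0.0257 with TPM and 0.0008 and 0.0225 with total counts. The share differences in percentage points were −1.84 to 0.446 for Ppargc1a, −0.446 to 1.84 for Ppargc1b and −0.776 to 0.366 for Esrrb with 1 heart left out. Ppara rests on 95 to 593 reads per heart.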

Other observations

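The TGACG core of cyclic AMP response sites was frequent in promoter windows of the energy targets. Of 29 windows of 20 energy target genes, 18 (62.1%) held it and 6 (20.7%) held the full TGACGTCA, against 20.8% and 1.79% of all 32851 windows. For the PPAR targets these were 7 (29.2%) and 0 of 24 windows of 21 genes. The energy target windows also held more CpG dinucleotides, a median of 22 against 7 for all windows, and the core itself contains a CpG, so their part in the difference was not tested. The receptor core AGGTCA was in 8 of 24 PPAR target windows (33.3%) and 5 of 29 energy target windows (17.2%), and TCAAGGTCA was in none of either. The motifs were chosen for what is known of these regulators, windows of 1 gene can overlap, and no test was made.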
